A study of Arabidopsis thaliana with 90 samples.

Results

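A set of 150 nuclear genes of Arabidopsis thaliana was low after 1 h of red light (R) and back near its dark level after 24 h R in aBcde seedlings grown at 17 °C. The genes were taken from 28496 nuclear genes with raw read counts. Levels were expressed as CPM, counts scaled to the summed nuclear counts of each library, and L is the log2 ratio of mean CPM + 1 after R to mean CPM + 1 in darkness. A gene qualified with L at 24 h within 0.5 of 0, with L at 1 h of -0.8 or lower, and with all 3 libraries after 1 h R below all 3 dark libraries. The criteria were met by 431 genes, and the 150 genes with the lowest L at 1 h were kept. The genes were thus chosen by their values in aBcde at 17 °C in darkness, after 1 h R and after 24 h R, and these are given only as a description, without a test. The other lines, and aBcde at 27 °C, took no part in the choice.

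The 90 libraries came from poly(A)-enriched RNA of whole 4-day-old dark-grown seedlings of 5 lines in the Ler ecotype. Each line was grown at 27 or 17 °C and sampled in darkness, after 1 h and after 24 h of R at a fluence rate of 50 µmol per square metre and second, with 3 libraries in each of the 30 groups. All lines lack functional phyA, phyE and endogenous phyD through phyA-201, phyD-1 and also phyE-1. The aBcde line also carries phyC-1 and keeps native phyB. PHYB-CFP/abcde carries a PHYB-CFP transgene under the PHYB promoter in abcde, the quintuple mutant that additionally has phyB-1 with phyC-1. PHYD-YFP/abcde is 1 strongly expressing transgenic line with PHYD-YFP under the 35S promoter in the same quintuple mutant. PHYB-CFP, PHYD-YFP/abcde holds both transgenes. PHYD-YFP/abCde carries phyB-1 and holds the PHYD-YFP transgene with a functional phyC. The aBcde line, PHYB-CFP/abcde and the line with both transgenes are called the phyB lines. A single dark group served both R times of a line and temperature, so R and elapsed time cannot be told apart. The labels number the 3 libraries of a group without naming separate cultures, so p-values measure only the spread between these libraries.

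Phytochromes are photoreceptors that R converts to their active form, and phyB and phyD belong to the light-stable type. Active phytochrome sets off a large change in transcription that turns an etioplast-bearing, dark-grown seedling into a green one. This change includes the building of chloroplasts, which needs plastid ribosomes, plastid chaperonins, proteins that process organelle RNA, and enzymes of chlorophyll and thylakoid lipids, many of them encoded in the nucleus. Because phyB reverts from its active form faster in the warm, temperature also sets its activity.

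The 150 genes were rich in chloroplast components. A chloroplast location stood in the reference annotation of 66 genes (44%), against 2530 of 20695 genes tested (12.23%). Both counts are lower bounds, because the annotation notes are incomplete. Genes were grouped by hand. The plastid ribosome and plastid translation were given 12 genes, chaperonins and protein import 7, and organelle RNA and transcription 18. Chlorophyll, lipids, quinones and the NADH dehydrogenase-like complex were given 10. A further 8 genes shape leaves and stomata, and 95 genes fell in none of these groups. The grouping was made after the values had been seen. No member stood on the lists of PIF-induced genes, genes that rise in light, clock genes, touch, wound and calcium genes or jasmonate genes. These lists are short, with 11, 15, 14, 28 and 20 tested genes. The rule itself limited such membership, since it kept only genes that fell at 1 h and were back by 24 h. In aBcde at 17 °C, edgeR called 25 of 28 touch, wound and calcium genes higher after 1 h R. It called 11 of 11 PIF-induced genes lower after 24 h R. The absence of listed genes is therefore not read as a result. The members were spread over chromosomes 1 to 5 with 35, 26, 31, 24 and 34 genes, and 6 pairs of neighbouring members lay within 10000 bases of each other. CPN60A and the pentatricopeptide repeat (PPR) gene AT2G28050 were 1 such pair, 8382 bases apart. Of the 150 genes, 56 overlapped another gene and 46 overlapped a gene on the other strand. The strand setting of the counting is not given in the sources used here, so reads of such partners may not have been separated.

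Upstream sequences are shown for 5 members on which the results turn. BRG3, a BOI-related RING ubiquitin ligase, and AT3G07350, a DUF506 protein, were the members most often lower after 1 h R outside the choosing group. CPN60A, the plastid chaperonin alpha subunit, AT4G01310, a plastid ribosomal protein of the L5 family, and G4, the chlorophyll synthase, come from the chloroplast groups. Each sequence holds the 250 bases before the annotated start in TAIR10.1 (RefSeq), on the strand of the gene, 5′ to 3′. Capitals mark the searched motifs on either strand. The positions are chr3:4123583-4123832 (minus strand) for BRG3, chr3:2346936-2347185 (plus) for AT3G07350, chr2:11926196-11926445 (plus) for CPN60A, chr4:545567-545816 (minus) for AT4G01310 and chr3:19219129-19219378 (minus) for G4.
BRG3: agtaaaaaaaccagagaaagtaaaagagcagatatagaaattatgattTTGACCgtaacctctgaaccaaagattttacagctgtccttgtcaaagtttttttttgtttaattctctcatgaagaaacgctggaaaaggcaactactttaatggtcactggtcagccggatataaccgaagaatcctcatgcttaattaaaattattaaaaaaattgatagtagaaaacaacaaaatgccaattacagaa
AT3G07350: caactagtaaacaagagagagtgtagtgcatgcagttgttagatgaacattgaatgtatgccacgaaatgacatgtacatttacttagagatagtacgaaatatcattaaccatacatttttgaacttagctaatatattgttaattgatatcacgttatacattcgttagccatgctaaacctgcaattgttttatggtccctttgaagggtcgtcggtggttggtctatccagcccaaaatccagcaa
CPN60A: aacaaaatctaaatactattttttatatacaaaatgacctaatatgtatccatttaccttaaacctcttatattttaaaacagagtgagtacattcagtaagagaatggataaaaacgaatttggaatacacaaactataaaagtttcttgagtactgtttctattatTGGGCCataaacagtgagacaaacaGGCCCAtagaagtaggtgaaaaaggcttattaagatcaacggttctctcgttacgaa
AT4G01310: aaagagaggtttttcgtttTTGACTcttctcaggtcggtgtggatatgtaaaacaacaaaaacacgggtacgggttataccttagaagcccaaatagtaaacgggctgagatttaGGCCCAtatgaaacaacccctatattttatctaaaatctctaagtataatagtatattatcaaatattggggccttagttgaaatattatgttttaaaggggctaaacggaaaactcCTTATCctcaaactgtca
G4: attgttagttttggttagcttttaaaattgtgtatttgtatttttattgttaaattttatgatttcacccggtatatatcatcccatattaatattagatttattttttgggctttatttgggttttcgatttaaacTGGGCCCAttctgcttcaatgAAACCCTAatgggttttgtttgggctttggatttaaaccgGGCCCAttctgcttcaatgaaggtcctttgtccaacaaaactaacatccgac

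The capitals in CPN60A mark site II elements (TGGGCC or its complement GGCCCA), which are common before genes of ribosomes and organelles. In G4 they mark 3 site II elements, of which the first pair overlaps, and a telo box (AAACCCTA). AT4G01310 had a W-box (TTGACT), a site II element and a GATA element (GATAAG, read as CTTATC on this strand). BRG3 had a W-box (TTGACC), and AT3G07350 had none of the 9 motifs searched. Over all members, 32 of 150 windows held GATAAG (21.3%), against 2584 of 20666 windows of tested genes (12.5%). Site II elements stood in 31 windows (20.7%), against 16.1% of all windows. By group, they stood in 5 of 12 plastid ribosome windows, 4 of 7 chaperonin and import windows and 6 of 18 organelle RNA windows. In the chlorophyll, lipid and quinone group only 1 of 10 windows held them, that of G4, and in the leaf shape group 2 of 8. The phytochrome-linked G-box (CACGTG) was present in 4.67% of member windows and 7.43% of all windows, and the PIF-binding variant CATGTG in 10% and 11.3%. The W-box (TTGACC or TTGACT) stood in 24% of member windows and 28.4% of all windows, and the evening element (AAATATCT) in 6.67% and 4.87%. The rapid stress element (CGCGTT) stood in 1.33% and 2.74%, the GCC-box (GCCGCC) in 2.67% and 1.97%, and the telo box in 4.67% and 3.54%. These are letter matches on both strands and not sites of binding.

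In aBcde at 17 °C, L at 1 h ran from -2.07 to -1.09 over the members. The member with the lowest L was AT5G57170, of the macrophage migration inhibitory factor family, with a chloroplast location in its annotation note. Its mean CPM was 30.7 in darkness, 6.54 after 1 h R and 32.4 after 24 h R. The last genes inside the limit were AT5G19210 (L -1.10), AT2G38695 (-1.09) and AT5G57960 (-1.09), and the first genes outside it were AT4G39040 (-1.09), RH39 (-1.09) and AT3G19810 (-1.08). The limit thus fell among nearly equal values. Dark levels ran from 2.00 to 1606 CPM with a median of 41.3 CPM. The gene at the top of that range was AT1G74470, the geranylgeranyl reductase that makes the phytyl tail of chlorophyll, with 1606, 601 and 1176 CPM in darkness, after 1 h R and after 24 h R.

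Among the plastid ribosome and translation genes, AT4G01310 had 263, 93.0 and 326 CPM in darkness, after 1 h R and after 24 h R, and RPL9 had 159, 58.2 and 222 CPM. In the chaperonin and import group, CPN60A had 404, 135 and 403 CPM, and its partner CPN60B had 508, 170 and 530 CPM. CIA2, a transcription factor that promotes genes of plastid import and plastid ribosomes, had 52.0, 13.1 and 36.8 CPM. The mean levels of the chaperonin subunits after 24 h R were close to those in darkness, and that of CIA2 was lower. Of the organelle RNA genes, CP29, an RNA-binding protein of the chloroplast, had 870, 351 and 878 CPM. G4 had 101, 34.8 and 139 CPM.

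PHYLLO, an enzyme of phylloquinone synthesis, had 72.0, 28.4 and 99.6 CPM in aBcde at 17 °C in darkness, after 1 h R and after 24 h R. FAD6, a plastid fatty acid desaturase, had 329, 128 and 378 CPM. Both were higher in mean level after 24 h R than in darkness, whereas ACDO1, an ABC1-like kinase of the chloroplast, had 172, 62.7 and 123 CPM. In the leaf shape group NGA3, a B3-type factor of leaf margin growth, had 4.61, 0.553 and 4.23 CPM, the lowest L of that group. TCP5, a factor that limits leaf growth, had 10.2, 2.48 and 11.8 CPM. TMM, a receptor-like protein that spaces stomata, had 65.8, 23.6 and 93.0 CPM.

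Libraries with low member levels were also low in genes of the cotyledon. For each library after R, the median over the 150 genes of the log2 CPM difference from its own dark mean was taken. In aBcde at 17 °C this median was -1.55, -1.14 and -1.27 in replicates 1, 2 and 3 after 1 h R. The same 3 libraries had 55.1, 78.5 and 64.3 summed CPM of 12 genes of the cotyledon or leaf blade and stomatal lineage, against 146 to 189 CPM in the dark libraries. The summed level of 8 genes of photosynthetic carbon metabolism was 1031, 1507 and 1211 CPM, against 3834 to 3942 CPM in darkness. The summed level of the 13 tested genes of a list of 14 root genes was 607, 571 and 573 CPM, against 381 to 491 CPM. None of these marker genes is a member, and the lists were made after the values had been seen. In libraries of whole seedlings, fewer cells of a type and less RNA per cell cannot be told apart, and the part of tissue make-up in the member levels was not tested.

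Outside aBcde at 17 °C, 4 libraries after 1 h R had member levels well under those of their replicates. The member median of PHYD-YFP/abCde at 17 °C was -0.02, -0.02 and -2.15 in replicates 1, 2 and 3. Replicate 3 had 97.3% of members below all its dark libraries, against 35.3% of all genes tested. It also had 48.2 CPM of the blade list, against 199.7 and 203 CPM in its replicates, 872 CPM of the photosynthetic list, against 5611 and 5974 CPM, and 782 CPM of the root list, against 299.9 and 309.8 CPM. In aBcde at 27 °C the median was -0.05, 0.16 and -0.93, and replicate 3 had 27.8 CPM of the blade list, against 71.1 and 87.2 CPM. In PHYB-CFP/abcde at 27 °C it was -0.09, -0.04 and -0.91, and replicate 3 had 40.6 CPM of the blade list, against 79.3 and 83.7 CPM. In PHYB-CFP/abcde at 17 °C it was 0.09, -0.43 and 0.25, and replicate 2 had 109 CPM of the blade list, against 178 and 202 CPM, with 603 CPM of root genes, against 358 and 288 CPM. All 6 libraries after 1 h R of PHYB-CFP, PHYD-YFP/abcde lay between -0.06 and 0.09. Counts of member calls that use these libraries are therefore given with and without them. Some dark libraries were low as well, measured from the other dark libraries of their group. The member median was -0.40 and -0.37 in replicate 3 of dark PHYD-YFP/abcde at 27 and 17 °C. In replicate 2 of dark PHYD-YFP/abCde at 27 °C it was -0.34. These libraries are part of the dark baselines of those lines, and no fit left out 1 of them alone.

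**Figure D1:**
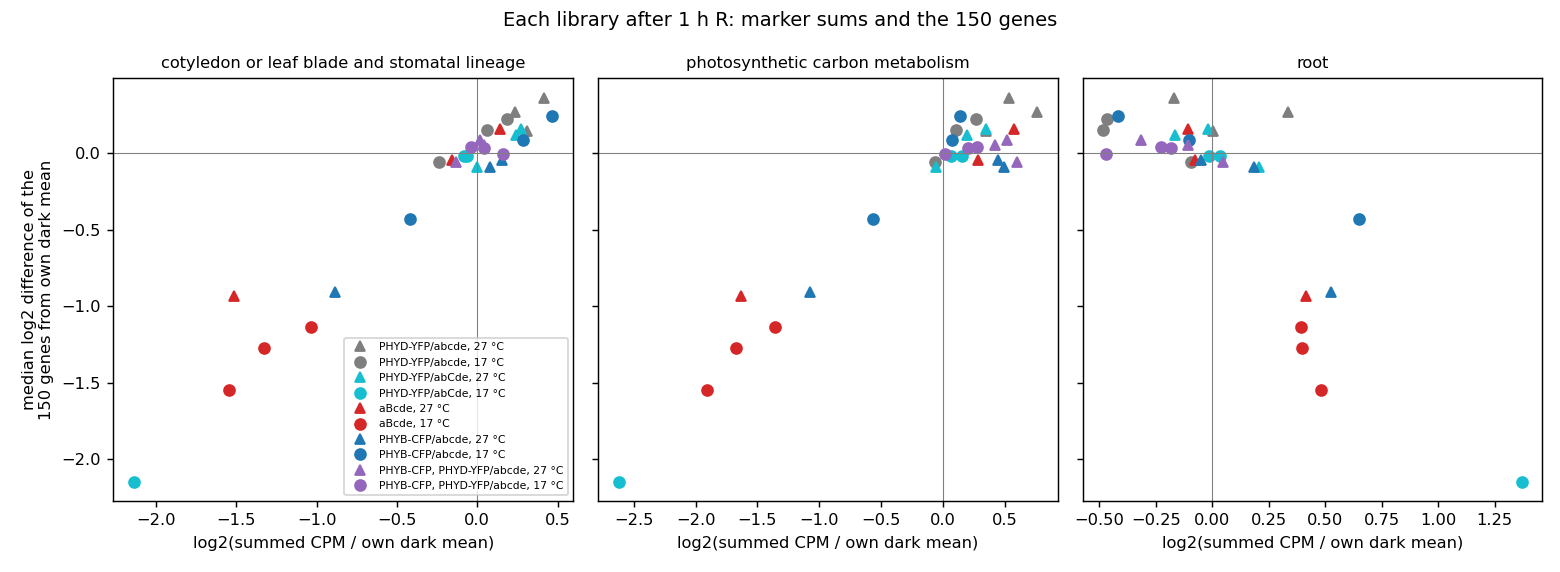
Median log2 CPM difference of the 150 genes from the line's own dark mean (vertical axis) in each of the 30 libraries after 1 h R, against the log2 ratio of the summed CPM of 3 marker lists to the dark mean (horizontal axis, 1 panel per list). The 3 aBcde libraries at 17 °C, which chose the genes, lie between -1.55 and -1.14, replicate 3 of PHYD-YFP/abCde at 17 °C lies at -2.15, and the other 2 libraries of that group lie at -0.02.

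**Figure D2:**
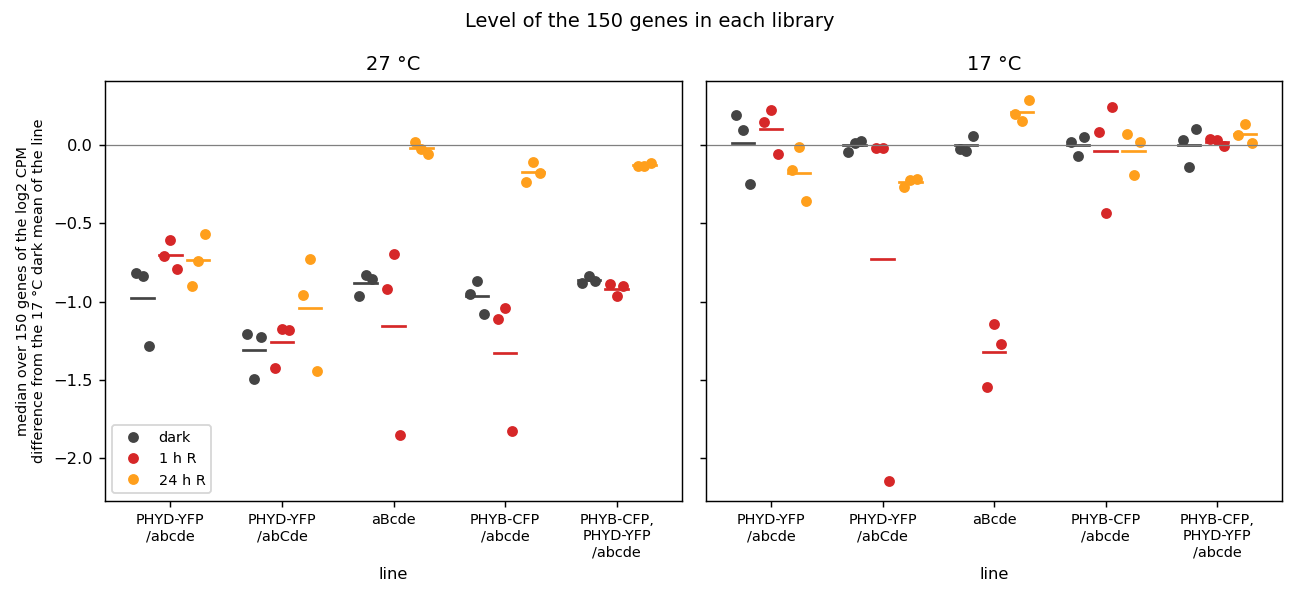
Median over the 150 genes of the log2 CPM difference from the mean of the line's own 17 °C dark libraries, in every library (27 °C left, 17 °C right). Dots are libraries and lines are means of 3; within each line the groups run dark, 1 h R, 24 h R. In aBcde at 17 °C, where the genes were chosen, the 1 h libraries are low, and at 27 °C the dark libraries of all 5 lines lie below those at 17 °C.

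The fall after 1 h R seen in aBcde at 17 °C was shared by few members elsewhere. Counts were fitted with the quasi-likelihood test of edgeR over 20695 genes, all 150 members among them, and a gene was called at an adjusted p (Benjamini-Hochberg) under 0.05. In the choosing group the median log2 fold change was -1.32, given only as a description because the same libraries chose the genes. In the 9 groups that took no part in the choice, the medians ran from -0.45 to 0.22. At 27 °C, 6 members were lower in aBcde (median -0.19; 1.79% of all genes were lower). PHYB-CFP/abcde had 11 lower members at 27 °C (median -0.30; 2.27% of all genes) and 2 at 17 °C (median -0.01; 0.333%). PHYB-CFP, PHYD-YFP/abcde had 5 lower members at 27 °C (median 0.02; 2.63%) and 2 at 17 °C (median 0.03; 0.585%).

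Of the PHYD-YFP lines without phyB, PHYD-YFP/abCde had 13 lower members at 17 °C (median -0.45; 1.71% of all genes), and 1 at 27 °C (median 0.05; 0.266%). Without replicate 3 after 1 h R, which stood apart, the 13 members came down to 1, BRG3, with a median of -0.03 (0.314% of all genes). Without replicate 1 or replicate 2 instead, 57 or 46 members were lower (5.7% and 3.87% of all genes). In PHYD-YFP/abcde no member was lower by the edgeR test at either temperature (0.0628% of all genes at 17 °C and 0.14% at 27 °C), and DESeq2 and limma also gave 0. An unadjusted p under 0.05 was found for 2 members at 17 °C and 22 at 27 °C, with median log2 fold changes of 0.10 and 0.22.

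Leaving out replicate 3 after 1 h R of aBcde at 27 °C left 3 lower members, AT2G28050, BRG3 and AT3G07350, with a median of 0.06 (1.29% of all genes). The same 3 genes remained in PHYB-CFP/abcde at 27 °C without its replicate 3, with a median of -0.08 (1.46%). Without replicate 2 of PHYB-CFP/abcde at 17 °C, AT3G07350 remained, with a median of 0.17 (0.372%). With every library kept, 4 members were lower at 27 °C in all 3 phyB lines, namely BRG3, AT3G07350, BBX27 and AT2G28050, against 236 of all genes tested (1.14%).

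BRG3 was lower after 1 h R in most groups. In aBcde at 27 °C it had 14.03, 16.5 and 12.2 CPM after 1 h R, against 35.8, 42.4 and 41.9 CPM in darkness (log2 fold change -1.49, SE 0.18, edgeR adjusted p 1.90e-09). In PHYB-CFP/abcde at 27 °C it had 16.9, 17.6 and 14.5 CPM, against 43.3, 42.7 and 38.5 CPM (-1.34, SE 0.17, adjusted p 1.87e-08). The line with both transgenes had at 27 °C 14.4, 12.9 and 16.7 CPM, against 33.1, 40.8 and 39.3 CPM (-1.36, SE 0.18, adjusted p 9.47e-09). No library after 1 h R of these 3 groups reached the dark range. In PHYD-YFP/abCde, BRG3 had 37.4, 35.1 and 26.4 CPM at 17 °C, against 73.5, 87.2 and 78.6 CPM (-1.27, SE 0.17, adjusted p 2.41e-07). The same line at 27 °C had 27.0, 30.2 and 29.2 CPM, against 53.5, 40.8 and 51.3 CPM (-0.75, adjusted p 0.0154). Neither pair of groups overlapped, but the call at 27 °C was lost when any replicate number was left out of all groups (adjusted p 0.127 to 0.236), and that at 17 °C in a model of the 9 libraries of this line and temperature (adjusted p 0.551). PHYD-YFP/abcde had 58.6, 62.1 and 61.9 CPM at 17 °C, against 95.4, 101.5 and 76.8 CPM, which did not overlap either but was not called (-0.58, SE 0.17, adjusted p 0.340). In PHYB-CFP/abcde at 17 °C the change of -0.75 (adjusted p 0.00825) was not called without the single library that stood apart, replicate 2 (-0.64, adjusted p 0.118). That call was also lost when replicate number 2 or 3 was left out of all groups (edgeR adjusted p 0.387 and 0.0818). The calls in the 3 phyB lines at 27 °C held under every alternative run.

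AT3G07350 was higher in the warm and lower after 1 h R. In aBcde at 27 °C it had 33.0, 32.5 and 31.9 CPM after 1 h R, against 98.7, 97.7 and 120.2 CPM in darkness (log2 fold change -1.70, SE 0.16, edgeR adjusted p 2.03e-13). In PHYB-CFP/abcde at 27 °C it had 30.1, 39.9 and 39.1 CPM, against 116.9, 128.2 and 112.1 CPM (-1.71, SE 0.16, adjusted p 8.84e-14). The line with both transgenes had 27.0, 26.9 and 32.8 CPM at 27 °C, against 90.6, 110.8 and 105.3 CPM (-1.82, SE 0.16, adjusted p 8.64e-15). In each of these 3 lines the groups were far apart. At 17 °C PHYB-CFP/abcde had 39.9, 39.1 and 26.0 CPM, against 55.9, 51.5 and 53.8 CPM (-0.62, SE 0.15, adjusted p 0.0235). At 17 °C the line with both transgenes had 38.5, 39.5 and 38.1 CPM, against 89.5, 67.5 and 71.0 CPM (-0.97, SE 0.15, adjusted p 1.19e-05). Only the call in PHYB-CFP/abcde at 17 °C was lost among these 5, without replicate number 2 or 3 (adjusted p 0.206 and 0.325) and in the model of 9 libraries (adjusted p 0.1496). In the PHYD-YFP lines without phyB it was not called at either temperature, with log2 fold changes of -0.44 and -0.59 at 17 and 27 °C in PHYD-YFP/abCde (adjusted p 0.0753 and 0.0564) and of -0.54 and -0.51 in PHYD-YFP/abcde (adjusted p 0.324 and 0.0955).

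BBX27, a B-box protein, had 70.7, 75.6 and 20.8 CPM after 1 h R in aBcde at 27 °C, against 108.9, 131.7 and 133.4 CPM in darkness (log2 fold change -1.16, SE 0.31, edgeR adjusted p 0.0113). In PHYB-CFP/abcde at 27 °C it had 49.8, 55.2 and 19.6 CPM, against 105.3, 111.7 and 105.0 CPM (-1.37, SE 0.31, adjusted p 0.00146). Replicate 3, the library that stood apart in both groups, was the lowest in each, and without it neither call held (-0.769 and -1.03, adjusted p 0.239 and 0.05959). The aBcde call was also lost without replicate number 1, 2 or 3 in all groups (adjusted p 0.0791, 0.0743 and 0.0829). In the model of 9 libraries it was lost too (adjusted p 0.108). No library stood apart in PHYB-CFP, PHYD-YFP/abcde at 27 °C, where BBX27 had 50.0, 47.2 and 57.9 CPM, against 114.6, 119.3 and 122.0 CPM (-1.20, SE 0.31, adjusted p 0.00454). That call was lost without replicate number 1 or 2 (adjusted p 0.133 and 0.153). AT2G28050, a PPR gene of low level, had 1.89, 1.39 and 1.49 CPM in that group after 1 h R, against 6.77, 5.29 and 3.78 CPM (-1.73, SE 0.46, adjusted p 0.00649), and this call too was lost without replicate number 1 or 2 (adjusted p 0.108 and 0.273). In aBcde at 27 °C AT2G28050 had 1.14, 1.63 and 0.161 CPM, against 5.21, 6.69 and 3.63 CPM (-2.40, SE 0.48, adjusted p 3.18e-04).

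**Figure D3:**
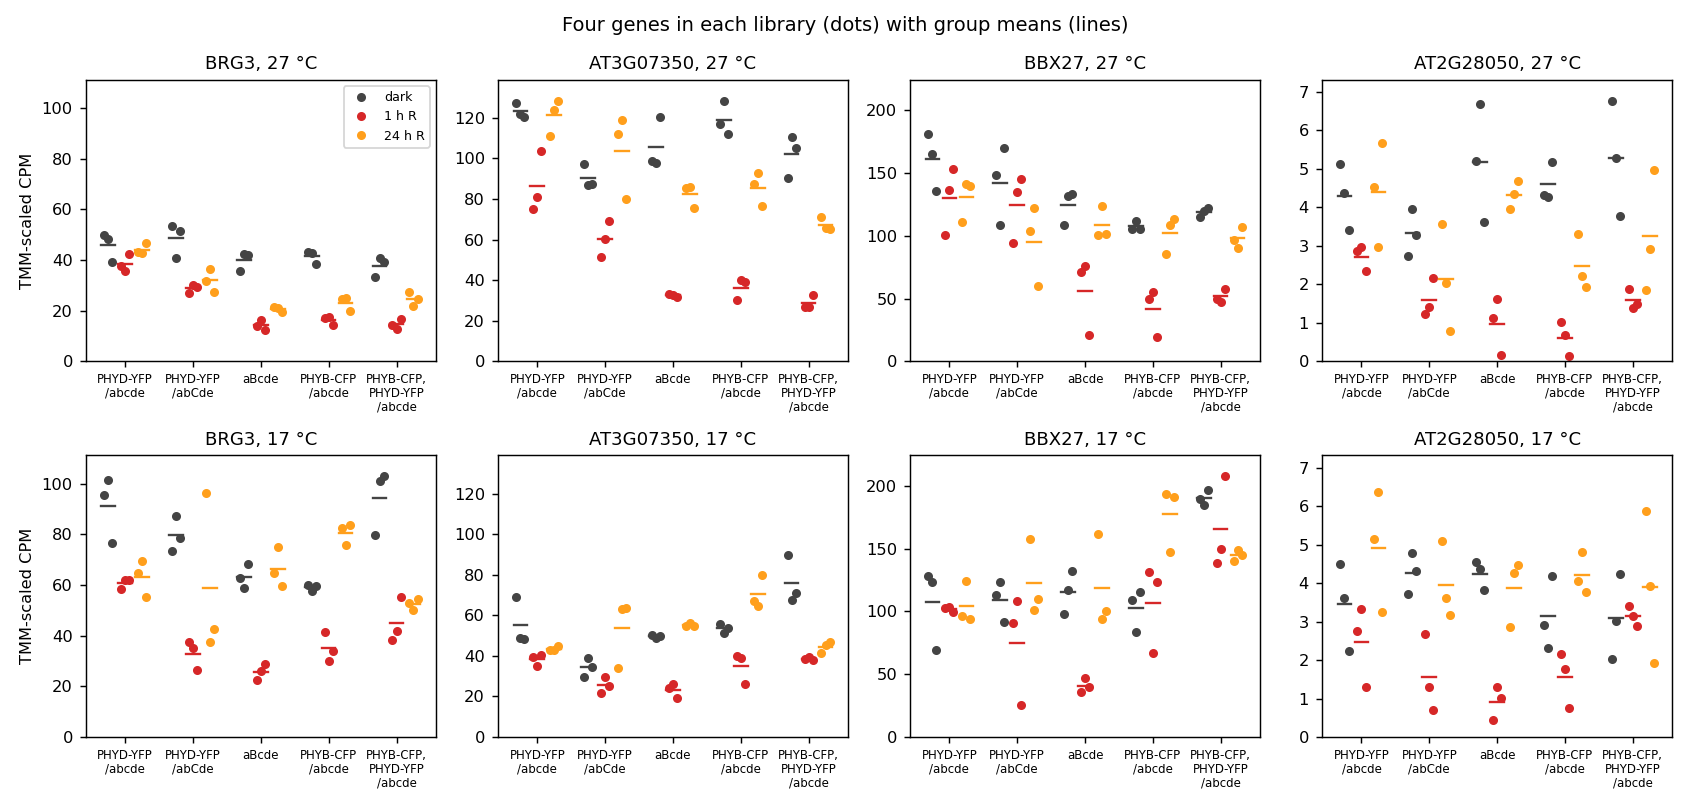
CPM (scaled with TMM) of BRG3, AT3G07350, BBX27 and AT2G28050 in every library of the 5 lines (27 °C top row, 17 °C bottom row); within each line the groups run dark, 1 h R, 24 h R, dots are libraries and lines are means of 3. AT3G07350 in the 3 phyB lines at 27 °C lies between 26.9 and 39.9 CPM after 1 h R and at 90.6 CPM or higher in darkness.

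After 1 h R at 27 °C, the plastid ribosome members had log2 fold changes between -0.44 and -0.01 in aBcde. Their range was -0.51 to -0.10 in PHYB-CFP/abcde and -0.15 to 0.27 in PHYB-CFP, PHYD-YFP/abcde. CPN60A was higher in PHYB-CFP, PHYD-YFP/abcde at 27 °C, with 268.5, 288.9 and 273.6 CPM after 1 h R, against 156.2, 168.7 and 150.1 CPM in darkness (log2 fold change 0.81, SE 0.22, adjusted p 0.00744; lost without replicate number 1 or 2, with adjusted p 0.138 and 0.186). FLN2, a component of the plastid transcription machinery, was the other member called higher after 1 h R, in PHYD-YFP/abcde at 27 °C with 21.3, 19.96 and 9.97 CPM, against 6.30, 12.7 and 6.76 CPM in darkness (1.01, SE 0.27, adjusted p 0.0499). Its groups overlapped. In these comparisons 5.67% and 0.58% of all genes were called higher. No other member was called higher after 1 h R by the edgeR test in the groups outside the choice, where the shares of all genes higher were 0.00483% in PHYD-YFP/abcde at 17 °C, 4.53% and 0.179% in PHYD-YFP/abCde at 17 and 27 °C, 2.53% in aBcde at 27 °C, 0.411% and 3.3% in PHYB-CFP/abcde at 17 and 27 °C and 0.599% in PHYB-CFP, PHYD-YFP/abcde at 17 °C. CPN60A in PHYD-YFP/abCde at 17 °C had 672.5, 586.1 and 136.3 CPM after 1 h R, against 581.8, 834.2 and 883.0 CPM in darkness, so that the low value came from the library that stood apart.

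The responses to 1 h R at 17 and 27 °C were compared within lines as a difference of log2 fold changes (17 °C minus 27 °C). In PHYB-CFP/abcde AT3G07350 was the only member called (difference 1.09, SE 0.22, adjusted p 0.00343), with a median difference of 0.34 over the members (0.10 without replicate 3 at 27 °C and 0.50 without replicate 2 at 17 °C, the libraries that stood apart, each with AT3G07350 as the 1 call), and 0.184% of all genes higher and 0.193% lower. In PHYB-CFP, PHYD-YFP/abcde it was again the only one (0.85, SE 0.22, adjusted p 0.0196; median -0.02; 0.227% of all genes higher and 1.23% lower). AT3G07350 fell in both lines at both temperatures and fell further at 27 °C. The call did not hold in PHYB-CFP/abcde without replicate 1 (difference 0.91, adjusted p 0.193) or replicate 2 (0.97, adjusted p 0.3775), nor in PHYB-CFP, PHYD-YFP/abcde without replicate 2 (0.63, adjusted p 0.810) or replicate 3 (0.90, adjusted p 0.06068). In PHYD-YFP/abCde the edgeR test called 0 members, DESeq2 and limma each called 2, and 29 had an unadjusted p under 0.05 (median -0.47; 0.087% of all genes lower, 0.111% higher). Without its replicate 3 at 17 °C after 1 h R, the library that stood apart, edgeR again called 0, the median was -0.07 and 6 members had an unadjusted p under 0.05, whereas without replicate 1 or 2 instead, 16 or 5 members were called, all lower (medians -0.77 and -0.75; 1.12% and 0.324% of all genes lower). PHYD-YFP/abCde minus PHYD-YFP/abcde at 17 °C gave 0 edgeR calls, 1 DESeq2 call and 2 limma calls, with 33 members at an unadjusted p under 0.05 (median -0.53; 0.15% of all genes lower and 0.609% higher). Without the same replicate 3 the edgeR count was 0, the median -0.13 and 7 members had an unadjusted p under 0.05, and without replicate 1 or 2 instead, 27 or 10 members were called, all lower (medians -0.80 and -0.81; 2.94% and 1.37% of all genes lower). PHYB-CFP, PHYD-YFP/abcde minus PHYB-CFP/abcde at 17 °C gave 0 calls by all 3 tools, 0 members at an unadjusted p under 0.05 and 0% of all genes, and again 0 calls by edgeR without replicate 2 of PHYB-CFP/abcde (0 members at an unadjusted p under 0.05).

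Most members were lower in warm than in cool darkness. In the 4 lines with no libraries used in the choice, lower members at 27 °C than at 17 °C numbered 101 for PHYD-YFP/abcde, 110 for PHYD-YFP/abCde, 98 for PHYB-CFP/abcde and 93 for PHYB-CFP, PHYD-YFP/abcde (26.4%, 28.4%, 25.6% and 24.6% of all genes). The members higher at 27 °C numbered 8, 10, 7 and 6 in these lines (26.9%, 29.4%, 26.6% and 24.9% of all genes). The median log2 fold changes were -0.98, -1.31, -0.99 and -0.89. In all 4 lines 80 members were lower (53.3%), against 15.95% of all genes tested. In aBcde, whose 17 °C dark libraries took part in the choice, the median difference was -0.88 and 122 of 150 members were lower in mean level, given as a description.

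The plastid ribosome group was lower as a whole in warm darkness, with 12, 12, 12 and 11 of 12 genes called in PHYD-YFP/abcde, PHYD-YFP/abCde, PHYB-CFP/abcde and PHYB-CFP, PHYD-YFP/abcde. RPL9 had 48.0, 52.1 and 38.7 CPM at 27 °C in PHYB-CFP/abcde, against 170.1, 182.0 and 186.9 CPM at 17 °C (log2 fold change -1.96). In PHYD-YFP/abCde RPL9 had 41.1, 37.5 and 41.7 CPM at 27 °C, against 259.4, 244.1 and 258.9 CPM at 17 °C (-2.66). Of the chaperonin and import genes 6, 7, 6 and 5 of 7 were lower, and CPN60A in PHYB-CFP/abcde had 152.1, 161.0 and 132.3 CPM at 27 °C, against 442.7, 438.6 and 453.5 CPM at 17 °C (-1.58). Of the organelle RNA genes 13, 17, 13 and 10 of 18 were lower, and of the chlorophyll, lipid and quinone group 8, 9, 9 and 7 of 10. Of the leaf shape genes 4, 3, 1 and 2 of 8 were lower, and 58, 62, 57 and 58 of the 95 remaining genes were lower. Of all genes tested, 26.4%, 28.4%, 25.6% and 24.6% were lower in these lines, so the leaf shape counts are not read as a result.

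Among the remaining genes XDH2, a xanthine dehydrogenase of purine breakdown, had 9.81, 8.12 and 8.57 CPM at 27 °C in dark PHYD-YFP/abCde, against 68.5, 79.7 and 71.0 CPM at 17 °C (log2 fold change -3.05). Members higher in warm darkness in all 4 lines were AT5G47590, a small heat shock protein relative, CYSA, a cystatin protease inhibitor, AT2G32880, a MATH-domain protein, and AT3G07350, against 16.3% of all genes. AT3G07350 had log2 fold changes of 1.15, 1.39, 1.15 and 0.43, the last of which, in PHYB-CFP, PHYD-YFP/abcde, was not called without replicate number 2 or 3 (adjusted p 0.354 and 0.118). The AT2G32880 call was lost in PHYB-CFP, PHYD-YFP/abcde without replicate number 1 or 2 (adjusted p 0.1404 and 0.1399) and under limma (0.0768), and in PHYB-CFP/abcde without replicate number 2 (0.0695). AT5G47590 had 52.2, 54.2 and 71.6 CPM at 27 °C in PHYB-CFP, PHYD-YFP/abcde, against 3.85, 1.74 and 1.63 CPM at 17 °C (4.62). AT5G47590 had 25.3, 27.3 and 11.9 CPM at 27 °C in PHYD-YFP/abcde, against 0.520, 0.480 and 1.81 CPM at 17 °C (4.50). The 2 ranges did not overlap in either line. Marker genes moved with temperature as well: 7, 8, 8 and 7 of 8 photosynthetic genes, 9, 7, 5 and 6 of 12 blade genes and 6, 5, 12 and 9 of 13 tested root genes were lower at 27 °C in the 4 lines. Their part in the member levels was not tested.

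After 24 h R at 27 °C, members rose in the phyB lines. They numbered 88 in aBcde, 88 in PHYB-CFP/abcde and 80 in PHYB-CFP, PHYD-YFP/abcde (19.1%, 16.9% and 16.3% of all genes), with 6, 4 and 5 members lower (16.5%, 15% and 11.5%). The median log2 fold changes were 0.85, 0.77 and 0.73. In all 3 lines 74 members were higher (49.3%), against 11.7% of all genes tested. PHYD-YFP/abCde had 35 higher and 8 lower members (15.1% of all genes in each direction; median 0.34), and PHYD-YFP/abcde 5 and 1 (5.46% and 1.82%; median 0.27). Without replicate 3 of PHYD-YFP/abCde after 24 h R, whose member median of -0.06 lay under 0.40 and 0.61 in its replicates, 46 members were higher and 3 lower, namely ACDO1, BRG3 and CYSA (14% and 12.9% of all genes). Photosynthetic and blade marker genes moved with the members in aBcde, PHYB-CFP/abcde and PHYB-CFP, PHYD-YFP/abcde. In each line 8 of 8 photosynthetic genes were higher (medians 3.82, 3.24 and 2.91), and 8, 8 and 5 of 12 blade genes were higher. Of 13 tested root genes 5 were called lower and 1 higher in each line. The root medians differed in sign, with 0.62, -0.22 and -0.37. The 8 photosynthetic genes were also higher in PHYD-YFP/abCde and PHYD-YFP/abcde (medians 2.22 and 1.45). Their part in the member levels was not tested. These comparisons use the same 27 °C dark libraries as the comparison of dark temperatures, so both sets of values share them.

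After 24 h R at 27 °C the member levels of the phyB lines lay near those of cool darkness. Relative to a line's own 17 °C dark mean, the median of group means at 27 °C was -0.88, -0.98 and -0.88 in darkness in aBcde, PHYB-CFP/abcde and PHYB-CFP, PHYD-YFP/abcde. After 1 h R it was -1.22, -1.36 and -0.95, and after 24 h R -0.01, -0.17 and -0.10. In PHYD-YFP/abCde it was -1.302, -1.295 and -1.06 in darkness, after 1 h R and after 24 h R, and in PHYD-YFP/abcde -0.96, -0.72 and -0.73. The values of aBcde, which are measured from libraries used in the choice, are a description, and those of all lines were not tested.

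All 12 plastid ribosome genes were higher after 24 h R at 27 °C in each of the 3 phyB lines. RPL9 had 116.2, 109.7 and 126.2 CPM in aBcde after 24 h R, against 29.6, 37.4 and 42.9 CPM in darkness (log2 fold change 1.68). G4 had 126.1, 115.4 and 126.8 CPM in aBcde, against 17.0, 19.6 and 24.3 CPM (2.60, SE 0.33, edgeR adjusted p 1.01e-09). G4 in PHYB-CFP, PHYD-YFP/abcde had 127.1, 117.5 and 128.7 CPM, against 34.9, 36.9 and 28.1 CPM (1.90). The libraries after 24 h R lay close together and far above the dark range in both lines.

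PHYLLO had 73.4, 61.8 and 80.2 CPM after 24 h R in aBcde at 27 °C, against 11.8, 11.6 and 12.5 CPM in darkness (log2 fold change 2.59), and FAD6 had 269.1, 292.3 and 245.9 CPM in PHYB-CFP/abcde, against 79.9, 80.7 and 68.0 CPM (1.82). The chlorophyll, lipid and quinone group had 7, 6 and 6 of 10 genes higher in aBcde, PHYB-CFP/abcde and PHYB-CFP, PHYD-YFP/abcde. The organelle RNA group had 11, 13 and 10 of 18 higher, the chaperonin and import group 3, 4 and 4 of 7, and the 95 remaining genes 53, 51 and 47. Of the leaf shape genes 2, 2 and 1 of 8 were higher, among them TCP2, a relative of TCP5, with 1.304, 1.53 and 0.97. Of all genes tested, 19.1%, 16.9% and 16.3% were higher in these lines, so the leaf shape counts are not read as a result.

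**Figure D4:**
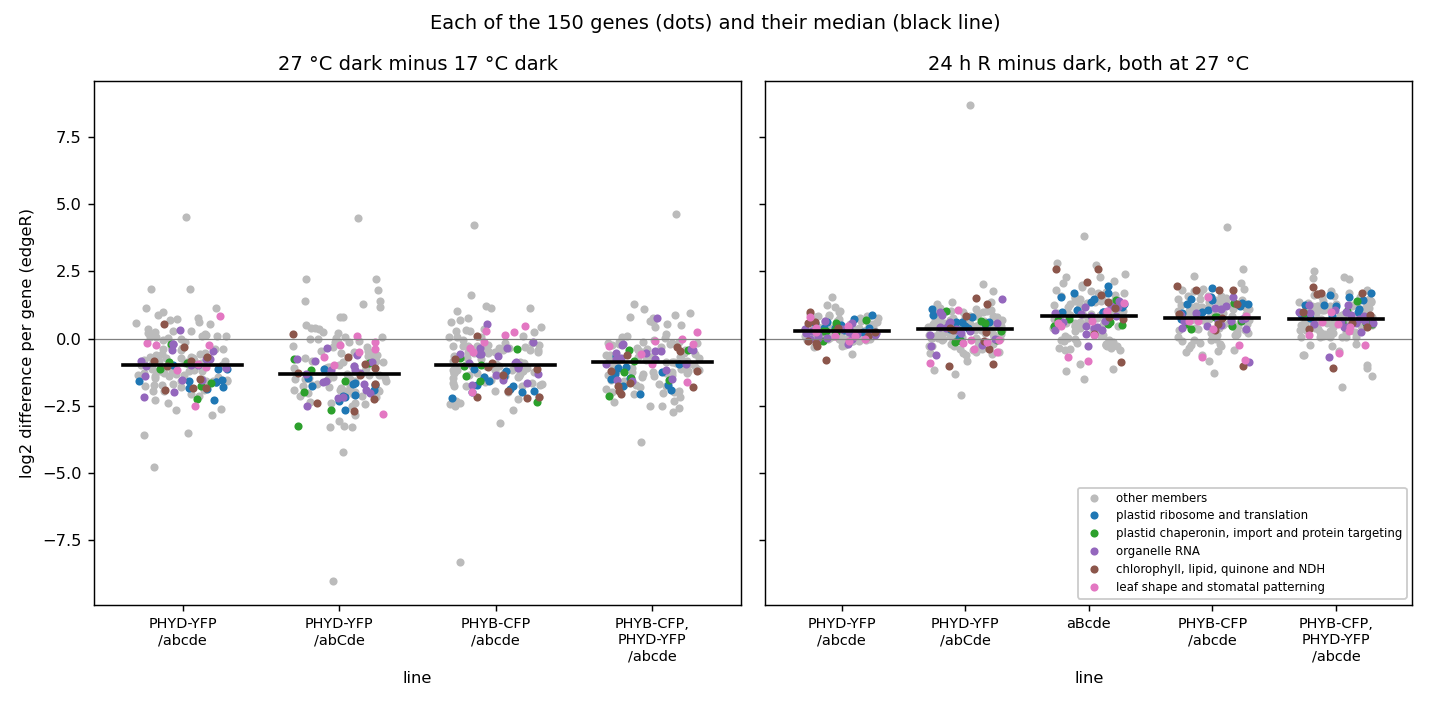
Log2 differences of the 150 genes for 27 °C minus 17 °C in darkness (4 lines) and for 24 h R minus darkness at 27 °C (5 lines); each dot is a gene coloured by its role group and the black line is the median. The dark medians lie between -1.31 and -0.89, and the medians after 24 h R are 0.85, 0.77 and 0.73 in the phyB lines and 0.34 and 0.27 in the PHYD-YFP lines without phyB.

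ACDO1, BRG3 and CYSA were lower after 24 h R at 27 °C in all 3 phyB lines, against 8.16% of all genes tested. ACDO1 had 110.6, 117.4 and 123.6 CPM in aBcde at 27 °C after 24 h R, against 200.1, 220.2 and 216.7 CPM in darkness (log2 fold change -0.86). In PHYD-YFP/abcde at 17 °C ACDO1 had 77.9, 97.5 and 77.2 CPM, against 211.6, 205.4 and 153.2 CPM (-1.18), and in PHYB-CFP, PHYD-YFP/abcde at 17 °C 120.5, 120.7 and 139.2 CPM, against 311.3, 263.1 and 322.8 CPM (-1.24). ACDO1 was lower after 24 h R in all 9 groups outside the choosing one, with edgeR adjusted p from 1.26e-05 to 0.0205. These calls held under every alternative in both PHYB-CFP lines, and each of the other 5 was lost in at least 1, with the highest adjusted p, 0.429, in PHYD-YFP/abcde at 27 °C without replicate number 1. In PHYD-YFP/abCde at 27 °C CYSA had 28.5, 33.0 and 19.9 CPM after 24 h R, against 121.8, 88.7 and 134.2 CPM (-2.08). Its calls in PHYB-CFP/abcde and in PHYB-CFP, PHYD-YFP/abcde at 27 °C (-1.29 and -0.97) were lost without replicate number 1 (adjusted p 0.0557 and 0.180). In PHYB-CFP/abcde BRG3 had 24.7, 24.8 and 20.01 CPM after 24 h R at 27 °C, against 43.3, 42.7 and 38.5 CPM in darkness (-0.84, edgeR adjusted p 7.86e-05). At 17 °C BRG3 had 82.7, 75.7 and 83.6 CPM in this line, against 59.9, 57.7 and 59.8 CPM (0.45, edgeR adjusted p 0.0408). The difference between these responses was not tested, and the 17 °C call was not rerun under the alternatives.

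At 17 °C, 24 h R left most members without a call in the lines that did not choose them. PHYB-CFP/abcde had 9 members higher and 5 lower (12.9% of all genes in each direction), and PHYB-CFP, PHYD-YFP/abcde 8 higher and 7 lower (19.4% and 18.4%). PHYD-YFP/abCde had 2 higher and 23 lower (16.8% and 17.3%), and PHYD-YFP/abcde 2 higher and 7 lower (5.41% and 6.46%). In each of these lines members were called in both directions at shares below those of all genes. The rule itself kept only genes near their dark level after 24 h R in aBcde at 17 °C. A test of genes chosen in this way cannot show whether low shares belong to the members, so these shares are not read as a result.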

How the data were processed

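Per the labels and the study's methods, the authors checked and trimmed reads (FastQC, Trimmomatic), mapped them to TAIR10 with STAR and counted them per gene with htseq-count; the deposited table holds raw counts for 28775 genes in 90 libraries. Total counts ran from 15010386 to 41124234 per library (median 17751738). Organelle-genome rows (279) and rows for tRNA or rRNA (627) were dropped. Genes with at least 5 counts in 25% of libraries (23) were tested, 20695 in all. The quasi-likelihood test of edgeR 4.0.16 (R 4.3.3) was fitted to TMM-scaled counts with 1 mean per group (30 groups, 60 residual degrees of freedom, no replicate block), and p-values were adjusted by Benjamini-Hochberg over all tested genes. TMM factors ran from 0.8653 to 1.102. DESeq2 1.42.0 and limma 3.58.1 were alternatives. Levels in the choosing description are unscaled CPM; other single-gene levels are TMM-scaled CPM. Per-library medians used log2 CPM with a prior count of 2.

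The members, role groups and gene lists were chosen with earlier results of these data known. Named genes were the 15 members with the lowest L, up to 5 called members per direction and comparison with the smallest p and non-overlapping groups, members of listed families and the 3 genes on either side of the limit; AT4G01310, AT1G74470, TMM, TCP2, FLN2 in the 1 h comparison, and the role groups and marker lists, were chosen after their values were seen. Gene names came from the reference annotation (28009 identifiers matched). Upstream windows and coordinates are from RefSeq TAIR10.1, whereas the authors mapped to TAIR10. RBCS1A, a leaf gene, had 290.9 to 14648 CPM and the seed storage gene CRA1 0 to 1244 CPM.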

Additional observations from a re-analysis of the deposited data

Results flagged for a closer look

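The difference in the response of AT3G07350 to 1 h R between temperatures stood out by its interaction test in 2 lines. In PHYB-CFP/abcde the log2 fold change at 17 °C minus that at 27 °C was 1.09 (SE 0.22, edgeR adjusted p 0.00343). In PHYB-CFP, PHYD-YFP/abcde it was 0.85 (SE 0.22, adjusted p 0.0196). Leaving out each replicate number in turn, in all groups, gave 0.91, 0.97 and 1.354 in PHYB-CFP/abcde and 1.02, 0.63 and 0.90 in PHYB-CFP, PHYD-YFP/abcde, positive in each of these 6 fits, of which 4 were not called. Leaving out only replicate 3 at 27 °C or replicate 2 at 17 °C after 1 h R of PHYB-CFP/abcde, the libraries that stood apart, gave 1.14 and 1.00 (adjusted p 0.005787 and 0.01577).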

How the results depend on the processing

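The counts below are of members called after R against darkness, in either direction at 24 h and for differences between responses, and lower at 1 h. Leaving out each replicate number in turn gave 0 to 19 for 24 h R in PHYD-YFP/abcde at 17 °C (9 with all libraries) and 0 to 7 at 27 °C (6), and 0 to 1 for 1 h R at 27 °C (0). In PHYD-YFP/abCde it gave 1 to 57 for 1 h R at 17 °C (13), 0 at 27 °C (1), and 10 to 46 and 10 to 82 for 24 h R at 17 and 27 °C (25 and 43). It gave 3 to 5 for 1 h R in aBcde at 27 °C (6), and in PHYB-CFP/abcde 0 to 2 and 3 to 6 for 1 h R at 17 and 27 °C (2 and 11) and 1 to 26 and 57 to 99 for 24 h R (14 and 92). In PHYB-CFP, PHYD-YFP/abcde it gave 2 to 7 for 1 h R at 27 °C (5) and 4 to 30 for 24 h R at 17 °C (15). The temperature differences of the response gave 0 to 16 in PHYD-YFP/abCde, 0 to 1 in PHYB-CFP/abcde and 0 to 2 in PHYB-CFP, PHYD-YFP/abcde, and PHYD-YFP/abCde minus PHYD-YFP/abcde at 17 °C 0 to 27. A model of only the 9 libraries of a line and temperature gave 22 and 12 for 24 h R in PHYD-YFP/abcde at 17 and 27 °C, 0 and 1 for 1 h and 24 h R in PHYD-YFP/abCde at 17 °C, 3 for 1 h R in aBcde at 27 °C, 1 and 26 for 1 h and 24 h R in PHYB-CFP/abcde at 17 °C, and 56 for 24 h R at 17 °C and 16 for 1 h R at 27 °C in PHYB-CFP, PHYD-YFP/abcde. DESeq2 gave 20 and limma 38 for 1 h R in PHYD-YFP/abCde at 17 °C. DESeq2 gave 2 there at 27 °C, and limma gave 3 for 24 h R in PHYD-YFP/abcde at 27 °C. For the temperature difference in PHYD-YFP/abCde DESeq2 gave 2, RLE scaling 1 and limma 2, and for the line difference DESeq2 gave 1 and limma 2. Choosing the members with TMM-scaled CPM, which kept 129 of the 150, moved only the temperature difference in PHYB-CFP, PHYD-YFP/abcde, to 2. Same-numbered libraries were not treated as pairs: in 0 of 30 comparisons was every same-number correlation over 0.1 (range -0.153 to 0.192). With 3 libraries per group this cannot exclude shared cultures or batches. With the replicate block, 24 members were called for 1 h R in PHYD-YFP/abCde at 17 °C, and no other count moved by over 1.5 times. Testing without the low-count filter, and choosing with column sums over all rows of the table (148 members shared), moved none of the counts. The comparison of dark temperatures stayed within 1.5 times under every alternative run. Settings that leave out a library that stood apart were chosen after seeing the data, and for the temperature difference in PHYB-CFP/abcde the 2 libraries were left out one at a time. The 9-library model holds no comparison between temperatures or lines. Of 144 calls on named genes, 69 were lost under at least 1 alternative and none reversed. The block ended 6 of them, among them the higher levels in 27 °C darkness of AT3G07350 and AT2G32880 in PHYB-CFP, PHYD-YFP/abcde (0.32 and 1.302, adjusted p 0.181 and 0.0734). Precision is limited by 3 libraries per group, and members near 2 CPM rest on few counts.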
